A study of Mus musculus with 9 samples.

Results

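Wnt proteins are secreted signals that cells read through frizzled receptors, and the genes described here are the Wnt ligands, their receptors and their secreted inhibitors in mouse cells on their way from fat cell precursor to beige adipocyte, a fat cell able to burn fuel for heat. They are the 46 genes, of 55359 listed, whose symbol names a Wnt ligand (19 genes), an R-spondin (4), a frizzled receptor (10), the co-receptors Lrp5 and Lrp6 (2), a secreted inhibitor of the Sfrp or Dkk families or Wif1 (9), or the intracellular proteins Ctnnb1 and Axin2 (2). The rule reads gene symbols only, and the gene set was proposed with earlier results of these data known. Enough counts for a test were found for 28 of them, against 14649 of all genes.

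The cells were adipocyte precursors cultured from inguinal white fat, which lies under the skin, and RNA was sequenced in 9 libraries, 3 from non-induced cells (day 0), 3 from cells at day 4 of beige differentiation and 3 from cells at day 8. The cells of days 4 and 8 had first been kept for 2 days in medium with 2 µg/mL of the glucocorticoid dexamethasone, 0.5 mM of the phosphodiesterase inhibitor IBMX, 125 µM indomethacin, 5 µg/mL insulin, 1 µM of the thyroid hormone triiodothyronine and 0.5 µM rosiglitazone, an agonist of the nuclear receptor PPARγ. They then stayed in medium without dexamethasone, IBMX and indomethacin. RNA was taken from the supernatant left after a Triton X-100 lysate was cleared, and total RNA was sequenced. Strain, age, sex and number of the mice are not given in the sources used here. The labels do not say whether replicates came from different mice or dishes, and the p-values therefore speak for the spread among these libraries alone, and that spread may be technical.

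In the canonical branch of the pathway, a Wnt bound to a frizzled and to Lrp5 or Lrp6 stops the destruction complex from breaking down β-catenin, which then works with TCF/LEF factors in the nucleus. Other Wnts act through frizzleds and the receptors Ror1, Ror2 and Ryk without β-catenin, in the planar cell polarity and calcium branches. R-spondins keep frizzleds at the surface, secreted frizzled-related proteins (Sfrp) and Wif1 bind Wnts outside the cell, and Dickkopf proteins (Dkk) such as Dkk1 and Dkk2 block Lrp5 and Lrp6. In cultured mouse precursors, canonical Wnt signals, above all Wnt10b, are known to hold back adipocyte formation.

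Libraries held 26387408 to 31474490 counts at day 0, 27222642 to 27692241 at day 4 and 30118228 to 31006682 at day 8. Levels are given as CPM, a gene's counts per 1000000 counts of its library after TMM adjustment of the totals, and a floor of 3 counts stood for 0.0809 to 0.125 CPM, counting error only. The 9 precursor markers summed to 2919 to 3134 CPM at day 0, 1110.3 to 2487 CPM at day 4 and 906 to 1162 CPM at day 8, with Pdgfrb, Thy1 and Itgb1 making up most of the day 0 sum. Ly6a (697, against 349 mean CPM at day 0), Cd34 (31.2, against 9.62) and Dlk1 (14.9, against 6.86) were higher in every day 4 library than in any day 0 library. Pi16 was higher at day 4 in mean (4.08, against 3.47) through replicate 2 alone. It had 1.08, 8.96 and 2.21 CPM at day 4 and 3.96, 2.10 and 4.35 CPM at day 0. The 8 adipocyte markers summed to 364 to 446, 22853 to 41180.4 and 30365 to 32288 CPM. Thermogenic markers (6) summed to 1.43 to 1.49, 56.8 to 286 and 823 to 1868 CPM. Of other cell types, endothelial markers, mostly Tek, summed to 11.4 to 15.5, 2.50 to 10.5 and 1.81 to 2.73 CPM, macrophage markers, mostly Lyz2, to 35.9 to 81.3, 42.4 to 64.3 and 8.50 to 44.1 CPM, and skeletal muscle markers, nearly all Acta1 and with Ckm, Myh4 and Myod1 at 0, to 29.6 to 36.0, 1.58 to 5.99 and 6.97 to 10.5 CPM. The mesothelial list summed to 16.1 to 21.6, 19.2 to 43.6 and 30.3 to 50.9 CPM, almost all of it the keratin Krt19 (18.7, 27.6 and 39.3 mean CPM), while Msln, Upk3b, Wt1 and Lrrn4 each had at most 0.484 mean CPM on any day. Mural markers summed to 13.3 to 16.2, 10.2 to 14.9 and 12.8 to 19.7 CPM, a sum of genes that moved in opposite directions. Of these, Cspg4 was higher at the later days (3.94, 7.13 and 14.7 mean CPM). Myh11 (8.30, 5.02 and 1.84), Abcc9 (1.79, 0.417 and 0.562), Kcnj8 and Rgs5 were lower than at day 0 in mean. Schwann cell markers summed to 4.04 to 6.33, 5.51 to 9.98 and 5.52 to 8.76 CPM. Lymphocyte and mammary epithelial markers stayed at or under 0.651 CPM. The labelled cell type of every library is a preadipocyte, days 4 and 8 included. Day 4 replicate 2 stood apart. It scored 13.7 on the first principal component (75.7% of the variance), against 84.6 and 69.5 in the other day 4 libraries and -138 to -135 at day 0. Its precursor markers summed to 2487 CPM and its adipocyte markers to 22853 CPM, both closest to day 0 among the day 4 libraries. Of the precursor sum, 1132 CPM was Ly6a, which was above its 315 to 407 CPM at day 0. Pdgfrb, Thy1 and Itgb1 (271, 506 and 350 CPM in that library) were nearest day 0 among the day 4 libraries but below every day 0 library. Of the 28 tested Wnt genes, 19 were higher in it than in both other day 4 libraries, 5 lay between them and 4 were lower.

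Most of the tested Wnt genes were lower in differentiating cells than in precursors. A gene is said to have risen or fallen where edgeR's two-sided quasi-likelihood test, fitted to all 9 libraries, gave a Benjamini-Hochberg adjusted p under 0.05 over the 14649 tested genes, and SE is the standard error of a log2 fold change in that fit. At day 4 against day 0, 16 of 28 fell and 2 rose, beside background shares of 26.0% of all tested genes lower and 28.6% higher. At day 8 against day 0, 17 fell and 3 rose, beside 29.9% and 33.5%. The median log2 fold change of the 28 was -1.56 at day 4 and -1.73 at day 8, against -0.01 and 0.03 over all tested genes. Between day 8 and day 4, 4 fell and 1 rose (background 10.8% and 11.7%), so the share called lay close to that of all genes. Both comparisons with day 0 use the same 3 day 0 libraries. These counts cover the genes that passed a filter on low counts, at 0.346 CPM before TMM adjustment. For 24 of the 28, every library of day 0 and of at least 1 later day was over it. Wnt2 and Wnt4 had every library over it at day 0 only. Wnt2 had 1 library over it at each later day, and Wnt4 had 1 at day 4 and 2 at day 8. Wnt2b had 2 at day 0, 0 at day 4 and 1 at day 8. Fzd9 had 1 at day 0 and every library of days 4 and 8, where it is high, so its rises add nothing to the counts. Without day 4 replicate 2 there were 19 lower and 2 higher at day 4 (background 30.0% and 30.1%), 20 and 3 at day 8 (33.5% and 33.2%), and 3 and 5 between days 8 and 4 (11.5% and 10.9%). The added lower calls at both days were Wnt2, Wnt4 and Sfrp2. Those of Wnt2 add nothing to the count, since it passed the filter only with its day 0 libraries, where it is high. Those of Wnt4 are not read as support either, since day 0, where it is high, was the only day with every library over the filter. In bulk RNA, fewer cells of a type and less RNA per cell cannot be told apart. The part of the marker lists of the precursor, adipocyte, endothelial and muscle kinds in these differences was not tested.

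**Figure D1:**
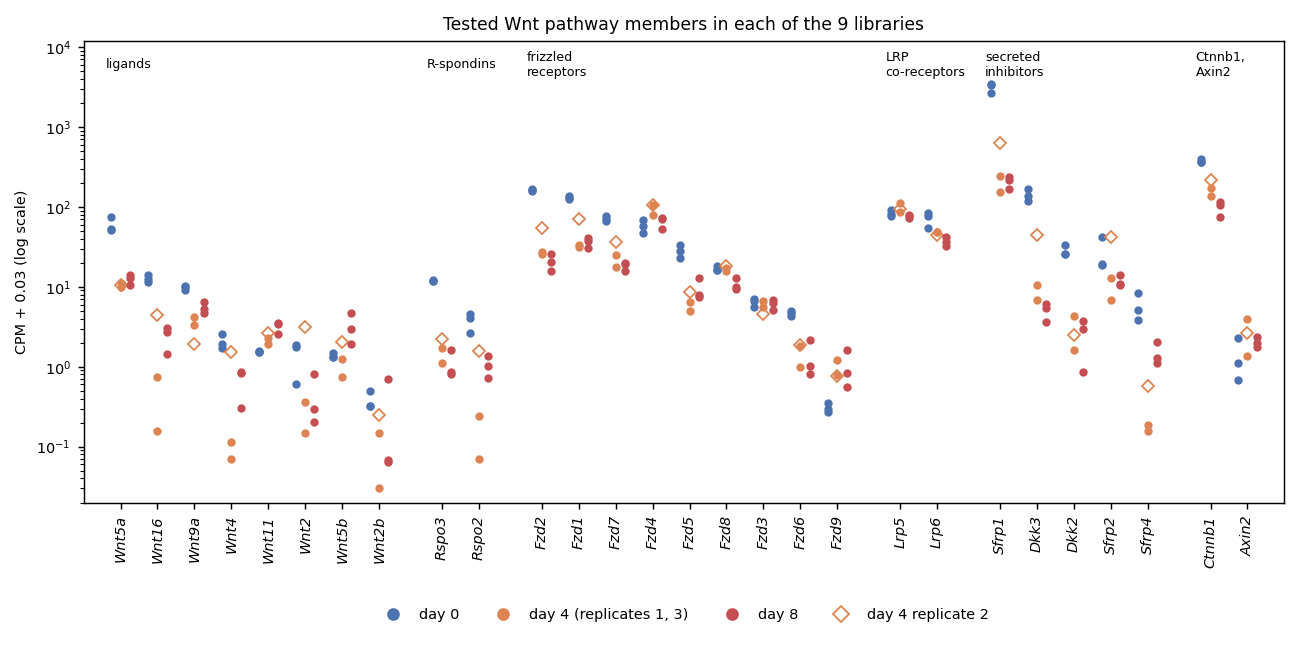
CPM of each tested Wnt gene (log scale, 0.03 CPM added) in each of the 9 libraries, by role and, within a role, by mean CPM at day 0. Blue is day 0, orange day 4 (replicate 2 as an open diamond) and red day 8. Sfrp1 stands highest at day 0 (3380.2, 2658 and 3462 CPM), and the open diamond lies above both other day 4 libraries for 19 of the 28 genes.

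Of the 8 tested ligands, 3 fell at both days (background 26.0% at day 4 and 29.9% at day 8) and 2 rose at day 8 (background 33.5%), shares near those of all genes. With day 4 replicate 2 left out, 5 fell at each day (background 30.0% at day 4 and 33.5% at day 8). Those added were Wnt2 and Wnt4, which had every library over the filter at day 0 only. The 3 that fell with all libraries, Wnt5a, Wnt16 and Wnt9a, had the highest length-scaled levels in precursors. Wnt5a (ENSMUSG00000021994), a ligand best known for signalling without β-catenin, had 74.0, 51.9 and 53.0 CPM at day 0, 9.89, 10.4 and 11.03 CPM at day 4 and 14.1, 10.5 and 12.7 CPM at day 8. All 6 libraries of the later days were below all of day 0. Its log2 fold change was -2.52 (SE 0.18, adjusted p = 1.82e-06) at day 4 and -2.26 (SE 0.18, adjusted p = 3.38e-06) at day 8. The exons of Wnt5a overlap those of Gm2670 on the opposite strand, and the strand setting of the counting is not given in the sources used here.

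Wnt16, known in mouse for its role in bone, had 12.4, 11.6 and 14.2 CPM at day 0, 0.125, 4.46 and 0.709 CPM at day 4 and 2.71, 1.39 and 3.05 CPM at day 8. The groups did not overlap day 0, and the highest day 4 value was that of replicate 2. The log2 fold change was -2.83 (SE 0.78, adjusted p = 0.0106) at day 4, or -4.90 without replicate 2, and -2.41 (SE 0.76, adjusted p = 0.0169) at day 8. Leaving out replicate 2 of day 8 ended the day 8 call (adjusted p = 0.0686). Wnt9a had 9.004, 9.88 and 10.1 CPM at day 0, 4.17, 1.92 and 3.31 CPM at day 4 and 4.65, 6.36 and 5.22 CPM at day 8. Its 3 days did not overlap, with the lowest values at day 4. Wnt9a fell by 1.63 on the log2 scale at day 4 (SE 0.28, adjusted p = 0.000614) and by 0.84 at day 8 (SE 0.27, adjusted p = 0.0181). The day 8 call was lost without day 8 replicate 1 (adjusted p = 0.0623) or 3 (0.0525), and day 8 was not called against day 4 (0.79, adjusted p = 0.0619), though it was with DESeq2 (0.77, adjusted p = 0.0339) and without day 4 replicate 1 (1.05, adjusted p = 0.021).

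Wnt11 and Wnt5b rose at day 8, both from low levels, and no tested ligand rose at day 4 (background 28.6%). Wnt11 (ENSMUSG00000015957), another ligand known for signalling without β-catenin, had 1.51, 1.52 and 1.51 CPM at day 0, 1.92, 2.65 and 2.28 CPM at day 4 and 2.53, 3.46 and 3.43 CPM at day 8. Every later library was above day 0, and days 4 and 8 overlapped. The log2 fold change was 1.05 (SE 0.27, adjusted p = 0.00526) at day 8 and 0.59 (adjusted p = 0.0816) at day 4. Its exons overlap the opposite-strand gene Gm8398. Wnt5b (ENSMUSG00000030170), the close relative of Wnt5a, had 1.29, 1.46 and 1.30 CPM at day 0, 0.709, 2.00 and 1.22 CPM at day 4 and 1.87, 2.94 and 4.63 CPM at day 8. The day 8 libraries lay above day 0, and day 4 overlapped both. Wnt5b rose by 1.22 on the log2 scale at day 8 (SE 0.42, adjusted p = 0.0269) and was not called at day 4 (-0.04, adjusted p = 0.948). Between day 8 and day 4 neither was called (Wnt11 0.46, adjusted p = 0.227, and Wnt5b 1.26, adjusted p = 0.0586), though Wnt5b was without day 4 replicate 2 (1.64). Leaving out day 8 replicate 3 or any 1 day 0 library ended the day 8 call (adjusted p from 0.0601 to 0.129), as did scaling by total counts (0.86, adjusted p = 0.113).

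RefSeq promoter windows (build GRCm38.p6, 250 bases before to 50 after a start site) were at hand for 30 of the 46 genes, 34 windows in all. The TCF/LEF motif CTTTGAT, searched on both strands (ATCAAAG on the reverse), was in 2 of the 34 windows (5.88%), those of Wnt11 and Wnt5b, and in 1225 of all 32851 windows (3.73%). The related letters CTTTGTT were in 3 windows (8.82%), of Dkk1, Fzd7 and Wnt3, against 5.85% of all windows. A match of letters is a description and not a site of binding. The median GC content was 70.3% in the 34 windows and 52.7% in all windows. The 250 bases before the start are shown for the ligands that rose, Wnt11 and Wnt5b, beside Wnt16 and Wnt9a, which fell, with the motif in capitals. Wnt5a had no window. The windows of Fzd4 and Fzd9, which rose at day 4, held no CTTTGAT match. A link between the motif and a rise or fall was not tested. Reads were counted on another build, so the windows carry no measured value.
Wnt11, chr7:98834862-98835111, plus strand, motif from base -51 before the start: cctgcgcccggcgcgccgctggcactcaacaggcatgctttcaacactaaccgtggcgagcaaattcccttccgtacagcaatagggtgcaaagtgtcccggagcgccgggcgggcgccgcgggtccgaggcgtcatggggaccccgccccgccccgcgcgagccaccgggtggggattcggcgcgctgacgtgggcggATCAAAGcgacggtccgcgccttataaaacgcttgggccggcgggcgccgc
Wnt5b, chr6:119449387-119449636, minus strand, motif from base -71: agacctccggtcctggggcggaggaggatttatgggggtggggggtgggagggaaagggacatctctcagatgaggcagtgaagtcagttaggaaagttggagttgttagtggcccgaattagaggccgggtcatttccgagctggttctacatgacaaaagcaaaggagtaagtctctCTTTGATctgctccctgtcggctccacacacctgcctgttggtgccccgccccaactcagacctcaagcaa
Wnt16, chr6:22287977-22288226, plus strand, no match: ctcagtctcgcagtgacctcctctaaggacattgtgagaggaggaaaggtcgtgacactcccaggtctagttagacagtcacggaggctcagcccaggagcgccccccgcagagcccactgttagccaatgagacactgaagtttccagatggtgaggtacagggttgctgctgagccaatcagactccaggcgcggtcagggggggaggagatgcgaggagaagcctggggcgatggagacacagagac
Wnt9a, chr11:59306680-59306929, plus strand, no match: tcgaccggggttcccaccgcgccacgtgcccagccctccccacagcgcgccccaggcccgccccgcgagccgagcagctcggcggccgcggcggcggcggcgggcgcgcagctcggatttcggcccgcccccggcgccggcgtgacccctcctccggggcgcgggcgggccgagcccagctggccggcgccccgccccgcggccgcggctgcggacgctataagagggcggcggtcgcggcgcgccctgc
Wnt11 has 2 windows in the table and Wnt5b has 3, and only the window shown holds the motif. For Wnt5b it belongs to the start farthest along the gene.

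Wnt2, Wnt4 and Wnt2b passed the filter at low levels and were not called at either day with all libraries. Wnt4, a ligand with roles in kidney and mammary gland, had 2.56, 1.91 and 1.69 CPM at day 0, 0.0835, 1.49 and 0.0394 CPM at day 4 and 0.278, 0.828 and 0.806 CPM at day 8. No later library reached day 0, and day 4 replicate 2 again lay closest to it. The log2 fold change of Wnt4 was -1.90 (adjusted p = 0.0906) at day 4, where it was -4.98 (adjusted p = 8.9e-05) without replicate 2, and -1.69 (adjusted p = 0.112) at day 8. That day 8 value was -1.74 (adjusted p = 0.00375) without day 4 replicate 2 and -1.70 (adjusted p = 0.0049) in a fit of days 0 and 8 alone. With no filter on low counts Wnt4 was called at both days (adjusted p = 0.0311 and 0.0456). Wnt2 had 1.83, 0.583 and 1.75 CPM at day 0, 0.334, 3.12 and 0.118 CPM at day 4 and 0.173, 0.264 and 0.771 CPM at day 8. Replicate 2 of day 4 held the highest of these 9 values, and the day 4 log2 fold change of -0.21 (adjusted p = 0.863) became -2.61 (adjusted p = 0.0146) without it. At day 8 it was -1.78 (adjusted p = 0.145), or -1.83 (adjusted p = 0.0227) without that library and -1.78 (adjusted p = 0.0248) with days 0 and 8 alone. Wnt2b reached at most 0.666 CPM, in day 8 replicate 3, and had no count in day 4 replicate 1. Its log2 fold change was -1.58 (adjusted p = 0.237) at day 4 and -0.51 (adjusted p = 0.665) at day 8.

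The other 11 ligands did not reach the filter. Wnt1, Wnt3a, Wnt7a, Wnt8a and Wnt9b had no count in any library, which at this depth allows up to 0.125 CPM in a library. Wnt10b, the ligand best known as a brake on fat cell formation in mice, had 21 counts over the 3 day 0 libraries, 6 at day 4 and 0 at day 8. Its pooled day 0 level was 5.77 times a floor of 3 counts over the day 8 group. That value takes the day 0 counts as exact and leaves out the spread between libraries, so it is not a lower bound. Wnt10a (2 counts in all), Wnt6 (5), Wnt3 (6), Wnt8b (8) and Wnt7b (12) were close to undetected. All 6 counts of Wnt3 came from day 8 replicate 3. Wnt7b exons overlap an opposite-strand gene, AU022754.

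Scaled by exon length, the ligands summed to 15.6 ± 1.67 CPM per kb at day 0, 4.49 ± 1.49 at day 4 and 6.14 ± 1.02 at day 8 (SD, n = 3 each). Wnt5a made up 48.6% ± 5.14 of that sum at day 0, 31.6% ± 8.88 at day 4 and 26.5% ± 6.59 at day 8. Wnt5b had 3.30%, 10.7% and 18.7%, and Wnt11 2.37%, 12.7% and 12.4%. Wnt9a made up 18.8%, 23.8% and 26.9%. At day 8 Wnt5a and Wnt9a thus had the largest mean shares, and their ranges over libraries overlapped (22.4% to 34.1% and 21.6% to 32.6%). In day 4 replicate 2 the ligand mix differed from its group, with Wnt2 at 22.3% and Wnt9a at 9.32%, against 1.39% to 4.24% and 26.3% to 35.9% in the other day 4 libraries. These shares are descriptions with no test.

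**Figure D2:**
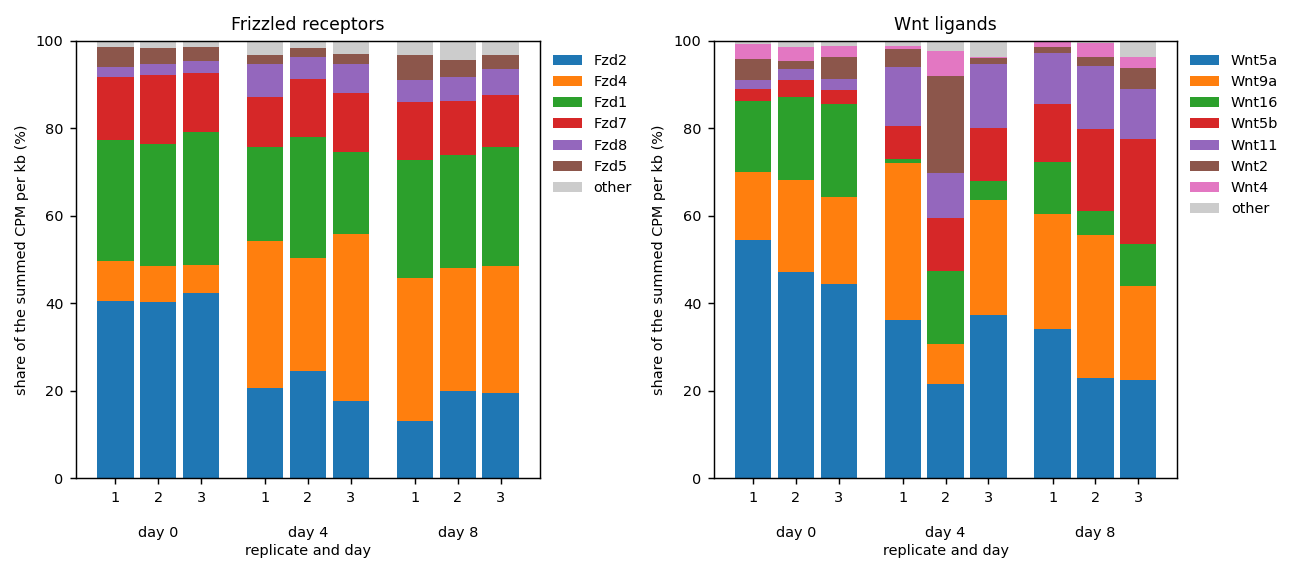
Share (%) of the summed length-scaled level (CPM per kb) that each gene holds among frizzled receptors (left) and Wnt ligands (right), 1 bar per library, days 0, 4 and 8 from left to right. Fzd2 holds 40.3% to 42.3% of the frizzled sum at day 0 and 13.1% to 20.0% at day 8, and Fzd4 6.51% to 9.15% and 28.1% to 32.7%.

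Both tested R-spondins, which bind LGR receptors and protect frizzleds from removal, fell at both later days (background 26.0% lower at day 4 and 29.9% at day 8). Rspo3 had 11.8, 12.3 and 11.9 CPM at day 0, 1.08, 2.18 and 1.69 CPM at day 4 and 1.60, 0.791 and 0.841 CPM at day 8. It fell by 2.85 on the log2 scale at day 4 (SE 0.32, adjusted p = 4.24e-05) and by 3.47 at day 8 (SE 0.34, adjusted p = 1.16e-05), an 11.1-fold lower level at day 8. Its exons overlap Gm48159 on the opposite strand. Rspo2 had 4.02, 4.57 and 2.60 CPM at day 0, 0.209, 1.56 and 0.0394 CPM at day 4 and 0.694, 0.979 and 1.33 CPM at day 8. All later libraries were below day 0, with log2 fold changes of -2.59 (SE 0.78, adjusted p = 0.0166; -4.88 without day 4 replicate 2) and -1.89 (SE 0.75, adjusted p = 0.0457). The day 8 call of Rspo2 passed in only 3 of 9 fits that each left out 1 library. It was lost without any 1 of the day 0 or day 8 libraries (adjusted p from 0.0543 to 0.132). Rspo1 had 29, 23 and 9 counts over the libraries of days 0, 4 and 8, under the filter, and Rspo4 had none.

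Of the 9 tested frizzled receptors, 5 fell and 2 rose at day 4 (background 26.0% lower and 28.6% higher), and 6 fell and 1 rose at day 8 (29.9% and 33.5%). The share that rose at day 4 (22.2%) was near that of all genes, and Fzd9, counted among the rises, passed the filter through days 4 and 8. Fzd2 and Fzd1 had the highest length-scaled levels at day 0. Fzd2 (ENSMUSG00000050288) had 163, 157 and 168 CPM at day 0, 26.1, 54.6 and 26.9 CPM at day 4 and 15.7, 20.7 and 25.7 CPM at day 8. The days did not overlap, and day 4 replicate 2 was the highest of day 4. The log2 fold change was -2.18 (SE 0.28, adjusted p = 0.000103) at day 4 and -2.98 (SE 0.29, adjusted p = 1.27e-05) at day 8, and -0.79 (adjusted p = 0.062) between day 8 and day 4. That last difference was called with DESeq2 (adjusted p = 0.0256), with no filter on low counts (0.0159) and without day 4 replicate 1 (0.0252). It was not called in the other fits. Fzd1 had 128.6, 124.5 and 138.5 CPM at day 0, 31.0, 71.4 and 32.9 CPM at day 4 and 37.1, 30.5 and 41.3 CPM at day 8, so days 4 and 8 overlapped. It fell by 1.53 (SE 0.28, adjusted p = 0.00107) and by 1.85 (SE 0.29, adjusted p = 0.000253).

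Fzd7, a receptor much studied in stem cells and the closest relative of Fzd1 and Fzd2, had 71.4, 75.9 and 66.4 CPM at day 0, 17.9, 36.5 and 25.3 CPM at day 4 and 20.0, 15.7 and 19.1 CPM at day 8. Its log2 fold change was -1.42 (SE 0.22, adjusted p = 0.000388) at day 4 and -1.96 (SE 0.23, adjusted p = 3.88e-05) at day 8. Fzd5 and Fzd6 also fell at both days, with no overlap with day 0. Fzd5 stood at 23.2 to 33.3 CPM at day 0, 4.92 to 8.67 CPM at day 4 and 7.53 to 12.8 CPM at day 8 (log2 fold changes -2.07, adjusted p = 0.000108, and -1.57, adjusted p = 0.000431). Fzd6, a receptor of the planar polarity branch, stood at 4.26 to 5.01, 0.960 to 1.85 and 0.791 to 2.10 CPM (-1.59, adjusted p = 0.00577, and -1.83, adjusted p = 0.00205). Exons of Fzd5 overlap Gm38058, and those of Fzd6 Gm26704, both on the opposite strand.

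Fzd4 and Fzd9 rose at day 4. Fzd4 (ENSMUSG00000049791), which is also the receptor for norrin, a signal unrelated in sequence to Wnts, had 67.8, 58.2 and 47.6 CPM at day 0, 78.4, 106 and 107 CPM at day 4 and 72.1, 53.2 and 70.1 CPM at day 8. All day 4 libraries were above all others, and days 0 and 8 overlapped. It rose by 0.75 on the log2 scale at day 4 (SE 0.18, adjusted p = 0.00571), was not called at day 8 (0.17, adjusted p = 0.433) and was lower at day 8 than at day 4 (-0.58, SE 0.18, adjusted p = 0.0453). With total counts the day 4 value was 0.43 (adjusted p = 0.104) and the day 8 value -0.18. The call between days 8 and 4 held in 1 of 9 fits without 1 library, the one without day 4 replicate 1. Adjusted p in the other fits ran from 0.0504 to 0.14.

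Fzd9, at the lowest level of the tested frizzleds, had 0.243, 0.324 and 0.266 CPM at day 0, 1.17, 0.726 and 0.748 CPM at day 4 and 0.798, 1.58 and 0.526 CPM at day 8. Every later library was above day 0, with log2 fold changes of 1.65 (SE 0.50, adjusted p = 0.0174) and 1.79 (SE 0.50, adjusted p = 0.00941). Fzd9 passed the filter through days 4 and 8, where it is high, with 1 day 0 library over it. The rise and the lack of overlap are therefore no added support. Its day 4 call was lost when replicate 1 of day 0, replicate 3 of day 0 or replicate 1 of day 4 was left out (adjusted p 0.055 to 0.0645). Fzd8 had 15.6 to 18.2 CPM at day 4 against 16.3 to 18.3 CPM at day 0 (log2 fold change -0.001, adjusted p = 0.997). At day 8 it was at 9.82, 9.45 and 13.0 CPM, below both earlier days. Its log2 fold change at day 8 was -0.66 against day 0 (SE 0.16, adjusted p = 0.00519) and -0.65 against day 4 (SE 0.17, adjusted p = 0.0193), and the call against day 4 was lost in 3 of 9 fits without 1 library (replicate 3 of day 4, replicate 1 of day 8 and replicate 2 of day 8, adjusted p 0.0574 to 0.0626). Fzd3, known for axon guidance and planar polarity, was not called (4.57 to 6.98 CPM over all 9 libraries). Its log2 fold change was -0.20 (adjusted p = 0.457) at day 4 and -0.09 (adjusted p = 0.736) at day 8. Fzd10 stayed under the filter with 23 counts over the day 0 libraries, 4 at day 4 and 1 at day 8, a day 0 over day 8 ratio of 19.0 with a 95% counting interval of 3.08 to 781.

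The length-scaled frizzled sum was 108.4 ± 1.98 CPM per kb at day 0, 45.8 ± 13.7 at day 4 and 32.4 ± 3.92 at day 8 (SD, n = 3 each). Fzd2 held 41.0% ± 1.11 of that sum at day 0, 20.9% ± 3.40 at day 4 and 17.5% ± 3.86 at day 8. Fzd4 held 7.94% ± 1.33, 32.6% ± 6.25 and 29.9% ± 2.44. Its share was larger than that of Fzd2 in every library of days 4 and 8 and smaller in every library of day 0, and the length-scaled ratio of Fzd4 to Fzd2 was 0.194 ± 0.0369, 1.62 ± 0.555 and 1.80 ± 0.61. Fzd1 kept 28.7%, 22.7% and 26.7% and Fzd7 14.5%, 12.7% and 12.5%. The order of mean length-scaled levels was thus Fzd2, Fzd1, Fzd7, Fzd4 at day 0 and Fzd4, Fzd1, Fzd2, Fzd7 at day 8, and neighbours in the day 0 order did not overlap over libraries. At day 8 the levels of Fzd4 and Fzd1 overlapped, as did those of Fzd2 and Fzd7. These values describe the mix and carry no test.

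Of the co-receptors, Lrp6 fell and Lrp5 was not called. Lrp6 had 83.2, 55.1 and 76.7 CPM at day 0, 47.9, 43.9 and 48.8 CPM at day 4 and 42.2, 31.9 and 36.0 CPM at day 8. It fell by 0.61 on the log2 scale at day 4 (SE 0.17, adjusted p = 0.0107) and by 0.97 at day 8 (SE 0.17, adjusted p = 0.000585), and the 3 days did not overlap. The day 4 call was lost without day 0 replicate 1 (adjusted p = 0.0524). Lrp5, also known for its role in bone mass, had 77.6, 81.6 and 92.1 CPM at day 0, 85.4, 95.2 and 111.4 CPM at day 4 and 76.4, 73.3 and 80.1 CPM at day 8. Its groups overlapped day 0, with log2 fold changes of 0.22 (SE 0.13, adjusted p = 0.189) and -0.13 (SE 0.13, adjusted p = 0.412). With total counts these were -0.11 and -0.49, the second with an adjusted p of 0.0135. The length-scaled ratio of Lrp5 to Lrp6 stood at 1.69 ± 0.385 at day 0, 2.92 ± 0.369 at day 4 and 2.96 ± 0.366 at day 8 (SD, n = 3 each).

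**Figure D3:**
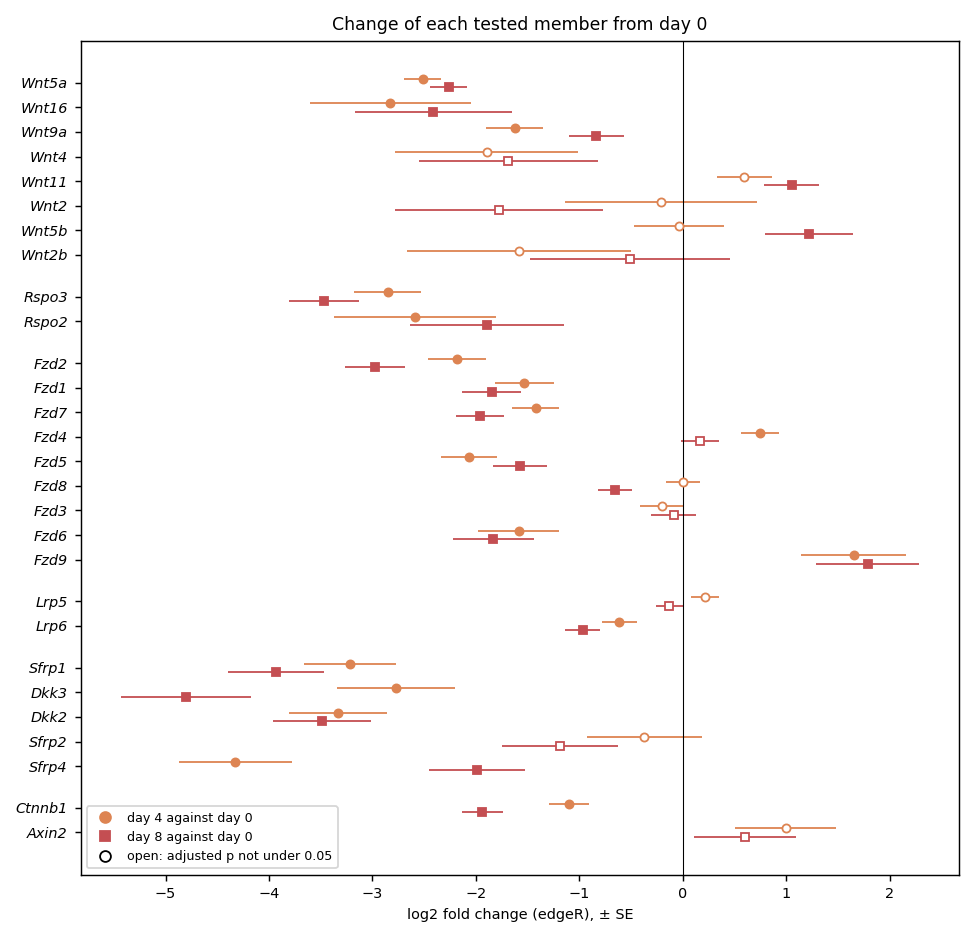
Log2 fold change ± SE (edgeR) of each tested Wnt gene at day 4 (orange circles) and day 8 (red squares) against day 0, by role. Filled symbols passed an adjusted p of 0.05 and open ones did not. Fzd4 and Fzd9 stand right of 0 and filled at day 4, and Wnt11, Wnt5b and Fzd9 at day 8, and Dkk3 lies farthest left at day 8 (-4.80).

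Of the 5 tested secreted inhibitors, 4 fell at both days and none rose (background 26.0% lower and 28.6% higher at day 4, 29.9% and 33.5% at day 8). Sfrp1 (ENSMUSG00000031548), which binds Wnts outside the cell, had the highest length-scaled level of the 46 genes in precursors, 724 ± 101 CPM per kb (SD, n = 3). It had 3380.2, 2658 and 3462 CPM at day 0, 152, 625 and 247 CPM at day 4 and 218, 169 and 234 CPM at day 8. All later libraries were below day 0, and the highest of them was day 4 replicate 2. The log2 fold change of Sfrp1 was -3.21 at day 4 (SE 0.45, adjusted p = 0.000166) and -3.93 at day 8 (SE 0.46, adjusted p = 4.1e-05), which is a 15.3-fold lower level at day 8. Without day 4 replicate 2 the day 4 value was -3.99.

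Dkk3, a divergent member of the Dickkopf family, had 137, 119 and 166 CPM at day 0, 6.88, 44.3 and 10.4 CPM at day 4 and 5.45, 3.62 and 6.03 CPM at day 8. No day overlapped another, and replicate 2 again stood highest at day 4. Its log2 fold change was -2.77 (SE 0.57, adjusted p = 0.00202) at day 4 and -4.80 (SE 0.63, adjusted p = 8.64e-05) at day 8. Between days 8 and 4 it was -2.03 (SE 0.58, adjusted p = 0.0302). Leaving out day 4 replicate 2 gave -4.02 at day 4 and -0.83 (adjusted p = 0.0309) between days 8 and 4, and the call between days 8 and 4 was lost without any 1 day 8 library (adjusted p from 0.0597 to 0.108). Dkk2, which blocks Lrp5 and Lrp6, had 25.6, 25.4 and 33.0 CPM at day 0, 1.59, 2.43 and 4.29 CPM at day 4 and 3.71, 0.828 and 2.91 CPM at day 8. It fell 10.1-fold at day 4 (log2 fold change -3.33, SE 0.48, adjusted p = 0.000198) and 11.2-fold at day 8 (-3.49, SE 0.48, adjusted p = 0.000114), and days 4 and 8 overlapped.

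With all libraries, Sfrp4 was the only tested Wnt gene called higher at day 8 than at day 4. Without day 4 replicate 2, 5 were called higher and 3 lower. Beside Sfrp4, those higher were Rspo2 (2.94, adjusted p = 0.00741), Wnt16 (2.44, adjusted p = 0.00727), Wnt4 (3.24, adjusted p = 0.0116) and Wnt5b (1.64, adjusted p = 0.0211). With DESeq2, Wnt5b and Wnt9a were called higher as well. Sfrp4 had 5.04, 8.29 and 3.85 CPM at day 0, 0.125, 0.544 and 0.158 CPM at day 4 and 1.08, 1.24 and 2.00 CPM at day 8, with no overlap between days. Sfrp4 was 20.0-fold lower at day 4 than at day 0 (log2 fold change -4.32, SE 0.55, adjusted p = 8.94e-05; -5.29 without day 4 replicate 2) and 3.97-fold lower at day 8 (-1.99, SE 0.46, adjusted p = 0.00329). Between day 8 and day 4 the log2 fold change was 2.34 (SE 0.55, adjusted p = 0.0148), or 3.26 without day 4 replicate 2, and the call was lost without day 4 replicate 3 (2.06, adjusted p = 0.0571).

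Sfrp2 was not called, and day 0 replicate 3 and day 4 replicate 2 stood high. It had 18.6, 19.1 and 42.5 CPM at day 0, 6.80, 42.3 and 12.9 CPM at day 4 and 10.9, 10.5 and 13.8 CPM at day 8. Day 8 lay below day 0 without overlap, with a log2 fold change of -1.19 (SE 0.56, adjusted p = 0.0868), and the day 4 value was -0.37 (adjusted p = 0.593). Without day 4 replicate 2 these were -1.24 (adjusted p = 0.0052) and -1.44 (adjusted p = 0.00616), and DESeq2 called the day 8 difference (adjusted p = 0.0355). Exons of Sfrp2 overlap Gm26771 on the opposite strand.

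Of the inhibitors under the filter, Wif1 had 8 counts over the day 0 libraries, 2 at day 4 and 0 at day 8. Its pooled day 0 level was 2.20 times a floor of 3 counts over the day 8 group, with the day 0 counts taken as exact. Dkk1 had 6 counts in all and Dkk4 none. Sfrp5, known from mouse white fat, had 17 of its 18 counts in day 4 replicate 2 (0.617 CPM). The length-scaled inhibitor sum was 788 ± 111 CPM per kb at day 0, 94.7 ± 72.3 at day 4 and 55.4 ± 9.25 at day 8 (SD, n = 3 each), of which Sfrp1 made up 92.0%, 83.8% and 85.6%. Sfrp2 held 1.55%, 9.30% and 9.92%. The inhibitor sum was 50.6 ± 5.63 times the ligand sum at day 0, 19.3 ± 8.57 times at day 4 and 9.11 ± 1.66 times at day 8. Ratios at day 0 ran from 46.9 to 57.1 and those at day 8 from 7.71 to 10.9, and at day 4 replicate 2 had 28.5 against 11.6 and 17.7. RNA sums of genes with different products say nothing of protein amounts.

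Inside the cell, Ctnnb1 (ENSMUSG00000006932), which encodes β-catenin, a protein of both Wnt signalling and cell junctions, had 362, 369.7 and 394 CPM at day 0, 139, 215 and 171 CPM at day 4 and 105, 75.2 and 114 CPM at day 8. The 3 days did not overlap. It fell by 1.10 on the log2 scale at day 4 (SE 0.19, adjusted p = 0.00082), by 1.94 at day 8 (SE 0.20, adjusted p = 1.69e-05) and by 0.84 between day 8 and day 4 (SE 0.19, adjusted p = 0.0134). Of the 5 calls between days 8 and 4, that of Ctnnb1 was the one that passed in all 9 fits without 1 library. Its exons overlap Ulk4 on the opposite strand and Mir7090. Axin2, a scaffold of the destruction complex and itself a target of β-catenin, had 0.647, 1.07 and 2.25 CPM at day 0, 1.34, 2.61 and 3.94 CPM at day 4 and 1.73, 1.96 and 2.31 CPM at day 8. The days overlapped, and it was not called (0.99, adjusted p = 0.11, at day 4 and 0.60, adjusted p = 0.306, at day 8). The day 4 difference passed without day 0 replicate 3 (1.61, adjusted p = 0.0258) or day 4 replicate 1 (1.31, adjusted p = 0.0429). Axin2 exons overlap Gm11670 on the opposite strand.

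Of the 93 other pathway genes in 7 lists, 81 were tested. At day 4 against day 0, 37 fell and 9 rose, at day 8 against day 0 49 fell and 11 rose, and between days 8 and 4 13 fell and 6 rose, with median log2 fold changes of -0.46, -0.67 and -0.16. Background shares were 26.0% lower and 28.6% higher at day 4 and 29.9% and 33.5% at day 8. Between days 8 and 4 they were 10.8% and 11.7%. Those without day 4 replicate 2 are given above. Calls of Tcf7 and Celsr2, named below, add nothing to these counts. Each passed the filter only through days where it is high. The day 8 fall of Apc2 is not read as support either. Day 0, where it is high, was its only day with every library over the filter. Without day 4 replicate 2 there were 47 lower and 11 higher of 82 at day 4, 54 and 12 at day 8, and 11 and 8 between days 8 and 4.

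In Wnt secretion, 2 of 4 genes fell and 1 rose at day 8 (1 and 1 at day 4). Wls, the carrier that takes Wnts to the cell surface, had 406 to 446 CPM at day 0, 81.6 to 153 CPM at day 4 and 85.3 to 114 CPM at day 8 (day 8 log2 fold change -2.08, adjusted p = 3.22e-05). Porcn, the enzyme that attaches the fatty acid Wnts need, went the other way and had 13.7 to 14.4 CPM at day 0, 14.7 to 41.3 CPM at day 4 and 53.9 to 78.9 CPM at day 8 (2.29, adjusted p = 0.000132). Trabd2b, a surface protease that cuts Wnts, was lower at day 8 (-0.58, adjusted p = 0.0391), a call that passed in 4 of 9 fits without 1 library.

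Of 13 other receptors and co-receptors tested, 11 fell at day 8 and 8 at day 4, and none rose at either day. Without day 4 replicate 2 there were 12 lower and 1 higher at day 8. Ptk7, a kinase-dead receptor of the polarity branch, had 131 to 147 CPM at day 0, 8.55 to 34.1 CPM at day 4 and 9.16 to 12.1 CPM at day 8 (day 8 log2 fold change -3.72, adjusted p = 3.71e-05). Adgra2, which acts with Reck in Wnt7 signalling in mouse brain vessels, fell by 3.71 (adjusted p = 5.04e-05) and Ror2, a receptor for Wnt5a, by 2.83 (adjusted p = 5.08e-05). The R-spondin receptors Lgr5 and Lgr6 were lowest at day 4. Lgr5 had 19.1, 13.7 and 24.6 CPM at day 0, 0.376, 2.25 and 0.945 CPM at day 4 and 3.26, 1.28 and 3.79 CPM at day 8 (-3.98, adjusted p = 0.000191, at day 4, or -4.84 without replicate 2, and -2.78, adjusted p = 0.000884, at day 8). Lgr6 fell at day 4 (-2.52, adjusted p = 0.00135, or -3.46 without replicate 2) and was not called at day 8 (-0.98, adjusted p = 0.0763). Its rise between days 8 and 4 (1.54, adjusted p = 0.0432) passed in 1 of 9 fits without 1 library.

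Among 9 tested modulators, 4 fell and 2 rose at day 8 (3 and 2 at day 4). At day 4 the shares, 33.3% lower and 22.2% higher, were near those of all genes (26.0% and 28.6%). The genes that rose were Tspan12, which in mouse retina boosts norrin signalling through Fzd4, and Apcdd1, a membrane inhibitor of Wnt. Tspan12 had 7.55, 4.82 and 4.08 CPM at day 0, 74.0, 41.1 and 54.6 CPM at day 4 and 138, 72.3 and 90.8 CPM at day 8 (day 8 log2 fold change 4.19, SE 0.34, adjusted p = 3.75e-06). Apcdd1 had 5.96 to 7.31 CPM at day 0, 58.2 to 78.5 CPM at day 4 and 49.3 to 59.5 CPM at day 8 (3.03, SE 0.17, adjusted p = 4.57e-07). Cthrc1, a secreted glycoprotein, fell at day 8 against day 0 (-2.34, adjusted p = 4.91e-05) and against day 4 (-1.84, adjusted p = 0.00219). Frzb, the secreted frizzled-related protein outside the Sfrp symbols, had 3.25 to 3.45 CPM at day 0, 0.960 to 1.52 CPM at day 4 and 0.791 to 1.58 CPM at day 8 (-1.64, adjusted p = 0.00166). The surface inhibitor Tpbg fell at both days (day 8 -1.57, adjusted p = 0.00668), with a day 4 call that passed in 5 of 9 fits without 1 library. Norrin's gene, Ndp, was under the filter with Cer1, Dkkl1, Rnf43, Sost and Sostdc1.

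Of 16 genes of the Dishevelled and destruction complex group, 7 fell and 2 rose at day 8 (7 and 1 at day 4), with a median log2 fold change of -0.14. Gsk3a, a kinase of that complex, rose at both days (0.84 and 0.91 on the log2 scale, adjusted p = 0.000397 and 0.000181). Dvl2 fell at both (-1.13 and -1.48, adjusted p = 0.00364 and 0.000552), as did the kinase Csnk1e (-0.64 and -0.51) and the polymerase Tnks, which marks axins for removal (-0.74 and -0.85; adjusted p of these 4 values from 0.00235 to 0.0117). Apc2, with every library over the filter at day 0 only, fell as well (-1.97 at day 8, adjusted p = 0.0158), a call lost without day 0 replicate 2 (adjusted p = 0.0543), and was at -2.60 without day 8 replicate 3. Of 14 TCF/LEF factors and partners, 9 fell and 3 rose at day 8 (6 and 2 at day 4). The co-repressor Tle1 rose, with 14.1 to 16.7 CPM at day 0, 56.7 to 67.5 CPM at day 4 and 34.0 to 45.6 CPM at day 8 (day 8 log2 fold change 1.37, adjusted p = 2.29e-05), while its relative Tle2 fell (-2.17, adjusted p = 0.000541). The co-activators Bcl9 (-1.69, adjusted p = 3.58e-05) and Pygo1 (-0.74, adjusted p = 0.0169) fell. The Pygo1 call was lost without day 0 replicate 3 or day 8 replicate 2. Tcf7 was at 0.0394 to 0.550 CPM in all libraries and passed the filter through day 0 only, where it is high. Its lower calls at both days therefore add nothing to the counts. They (-1.65 and -1.57, adjusted p = 0.048 and 0.0469) passed in 2 and 4 of 9 fits without 1 library. Without day 4 replicate 1 the day 4 value of Tcf7 was -2.37, and without day 8 replicate 3 its day 8 value was -2.16. Lef1 was under the filter.

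Of 14 tested genes known in other cells as β-catenin targets, 8 fell and 2 rose at day 8 (7 and 2 at day 4). Ccn4, a matricellular protein, had 237, 226 and 212 CPM at day 0, 4.88, 14.7 and 6.81 CPM at day 4 and 8.43, 2.49 and 7.15 CPM at day 8, a log2 fold change of -5.22 at day 8 (SE 0.50, adjusted p = 1.02e-05). The cell cycle gene Ccnd1 had 78.2 CPM in day 4 replicate 2, against 8.18 and 15.9 CPM in the other day 4 libraries and 29.3 to 43.3 CPM at day 0. It fell at day 8 (-2.57, adjusted p = 0.00681), and its fall between days 8 and 4 (-2.43, adjusted p = 0.028) was -0.98 (adjusted p = 0.0403) without that library and was lost without any 1 day 8 library. Nkd2, an inhibitor in the same pathway, fell at day 4 (-2.48, adjusted p = 0.000191) and rose between days 8 and 4 (1.72, adjusted p = 0.00752). Apcdd1, which is on this list too, rose as given above, so the list held genes that moved both ways. Sp5 was under the filter.

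In the planar polarity and calcium list, 13 of 19 tested genes fell and 2 rose at day 8 (9 and 2 at day 4, or 14 and 2 of 20 without day 4 replicate 2). Vangl2, a core polarity protein, had 21.2 to 23.3 CPM at day 0, 3.84 to 6.93 CPM at day 4 and 2.10 to 2.19 CPM at day 8 (day 8 log2 fold change -3.37, adjusted p = 2.29e-06). Prickle2 fell by 2.58 (adjusted p = 1.66e-05). Celsr2, an adhesion receptor of the same branch, was called higher at both days (adjusted p = 0.00125 each), with 80 counts over the day 8 libraries and 82 over day 4, against 8 at day 0. It passed the filter through days 4 and 8 only, where it is high, and its fitted fold rests on day 0 levels near the floor of 3 counts. The higher calls of Celsr2 therefore add nothing to the counts. Ptk7 and Ror2 are on this list as well.

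**Figure D4:**
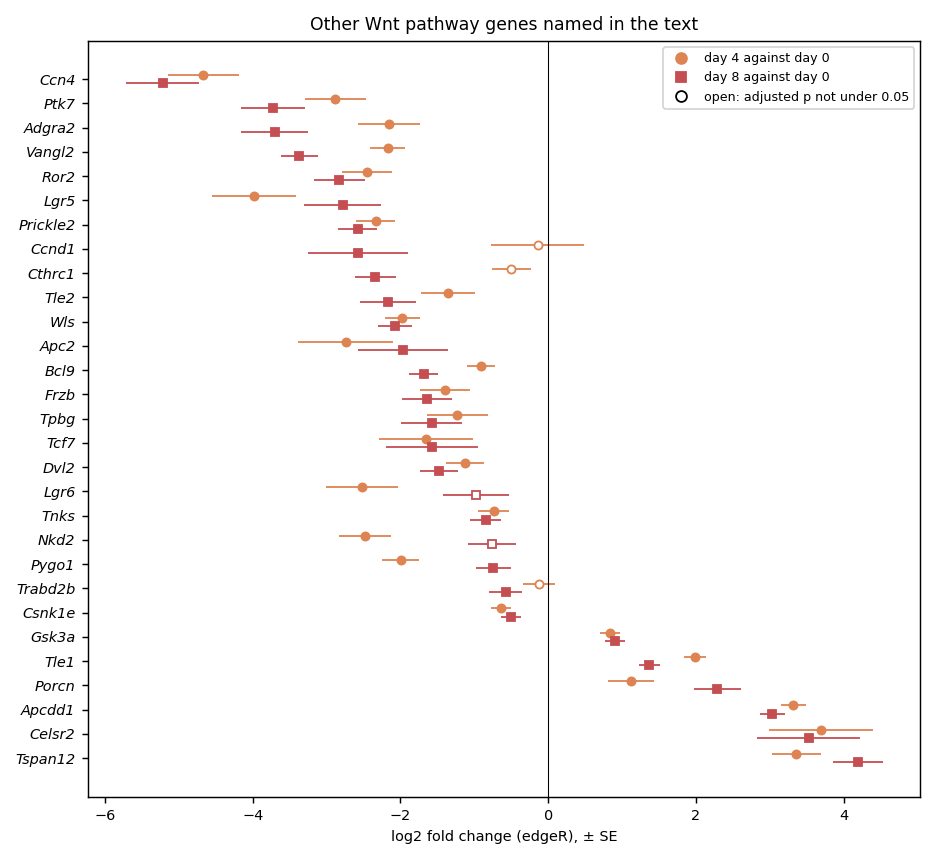
Log2 fold change ± SE (edgeR) at day 4 (orange circles) and day 8 (red squares) against day 0 for the other pathway genes named in the text, ordered by the day 8 value. Filled symbols passed an adjusted p of 0.05. Ccn4 lies at -5.22 and Tspan12 at 4.19 at day 8.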

How the data were processed

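Per the submitters' processing notes, reads were aligned with HISAT2 to GRCm39 and counted per gene with featureCounts. Versions, annotation release and strand setting are not given in the sources used here. The deposited file holds raw counts, whole numbers per gene and library, with no normalization by the authors. Of 55359 genes, 30671 had no count in any library.

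Genes were kept by filterByExpr (minimum count 10, minimum total 15), scaled by TMM and tested with edgeR 4.0.16 (R 4.3.3) in 1 quasi-likelihood fit of all 9 libraries by day, with 6 residual degrees of freedom and Benjamini-Hochberg adjustment. The biological coefficient of variation was 22.7%. CPM per kb divides CPM by the GENCODE M21 union exon length. The script was tested on simulated counts. At day 4 against day 0, with 14344 genes, it called 46% of 50 genes raised 2-fold, 36% of 50 lowered 2-fold, 100% and 96% of those changed 4-fold, and 3 unchanged genes. No libraries were near copies (chi-square per degree of freedom 16.6 to 240).

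Every tested Wnt gene is named. Of each pathway list, up to 3 genes with the largest absolute log2 fold change among those called at day 8 against day 0 are named, and up to 2 more called in either other comparison. The gene set, the 7 pathway lists and the marker lists were chosen with earlier results of these data known. Promoter windows come from a RefSeq table. Alternatives were RLE or total count scaling, other filters, DESeq2 1.42.0, fits of 2 days, a replicate block, and leaving out each library.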

Additional observations from a re-analysis of the deposited data

How the results depend on the processing

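The number of calls among the 28 tested Wnt genes against day 0 stayed within 1.5 times under every alternative run. Leaving out 1 library gave 16 to 21 calls at day 4 against day 0 (18 with all libraries) and 17 to 23 at day 8 against day 0 (20), and 16 of 18 and 16 of 20 calls passed in all 9 such fits. Over all genes these fits gave 6613 to 9110 and 8323 to 10111 calls, and over the pathway lists 41 to 58 and 52 to 66. The comparison of day 8 with day 4 depended on the processing. Its 5 calls were 8 with DESeq2, 3 with a replicate block, 2 in a fit of only those 2 days and 2 to 10 without 1 library. Its 3285 calls over all genes were 1901 with only the 2 days and 1894 to 4185 without 1 library, and its 19 pathway calls 9 and 9 to 25. The cause was not tested.

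Signs turned only for values that were not called. With total counts, Lrp5 at day 4 against day 0 was -0.11 and Fzd4 at day 8 against day 0 -0.18. Fzd8 at day 4 against day 0 was 0.00193 with the block and 0.00829 with only 2 days. Without 1 library, day 4 against day 0 values ran from -0.0569 to 0.0632 for Fzd8, -1.44 to 0.12 for Sfrp2, -2.61 to 0.33 for Wnt2 and -0.48 to 0.26 for Wnt5b. Day 8 against day 0 values ran from -0.20 to 0.0266 for Fzd3 and -0.64 to 0.0107 for Wnt2b. Day 8 against day 4 values ran from -0.71 to 0.0149 for Axin2, -0.56 to 0.31 for Dkk2, -0.52 to 0.13 for Fzd1, -0.0626 to 0.25 for Fzd3, -0.77 to 0.0102 for Fzd6, -0.40 to 0.43 for Fzd9, -1.07 to 0.00517 for Sfrp1, -1.23 to 0.20 for Sfrp2, -0.12 to 2.44 for Wnt16, -2.44 to 0.79 for Wnt2 and -0.33 to 3.24 for Wnt4.

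Total count scaling moved the median of all genes to -0.34 at day 4 and -0.33 at day 8 against day 0, and the share of called genes that were higher to 35.3% and 37.5%, against 52.4% and 52.9% with TMM. RLE scaling changed no call of a Wnt gene. Replicates share numbers across days, and the labels do not say what a number stands for. Correlations of same-numbered libraries' deviations ran from -0.126 to 0.273, and those of differently numbered ones from -0.224 to 0.188. Between days 0 and 8 the same-numbered values were 0.273, 0.138 and 0.0859, and the others ran from -0.180 to 0.0366. Between days 4 and 8 the same-numbered values were 0.0611, -0.126 and -0.00405. Whether same-numbered libraries share a culture or an animal was not tested. A replicate block gave 19, 19 and 3 calls in the 3 comparisons. It added Axin2 at day 4 (1.03, adjusted p = 0.0333) and lost Rspo2 at day 8 (adjusted p = 0.0566) and Fzd4 (0.0752) and Dkk3 (0.0858) between days 8 and 4. Depth limits the 18 Wnt genes under the filter, which had no test.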
